A study of Caenorhabditis elegans with 2 samples.

Results

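The genes described here make and amplify small RNAs in the nematode Caenorhabditis elegans. They were taken as a list of 9 named genes (ego-1, rrf-1, rrf-3, drh-3, ekl-1, mut-7, mut-16, henn-1 and dcr-1), out of 19985 annotated protein-coding genes. All 9 were found in the annotation. The values are ChIP-seq peaks (sites enriched in sequenced DNA after chromatin immunoprecipitation) of DPL-1. This is the DP partner of worm E2F factors and a subunit of DREAM, a complex that represses transcription. Per the labels there was 1 group of 2 biological replicates of strain YL390, collected as whole young adults of mixed sex, with no treatment named and the age given as unknown. The strain carries the mutation unc119(ed3)III and the transgene vrIs48, in which the pie-1 promoter drives DPL-1 fused to GFP and FLAG, with the 3′ UTR of dpl-1, next to a functional copy of unc-119. Both replicates share this background, and no group without the tagged protein was analysed here. The pie-1 promoter is known for its activity in the germline, so the tagged protein need not be present where native DPL-1 acts, and the peak lists hold no expression values with which to check the tissue.

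In worms, Dicer cuts double-stranded RNA into primary small RNAs, which Argonaute proteins use to find their targets. RNA-dependent RNA polymerases then copy the targets into abundant secondary small RNAs, with the help of a Dicer-related helicase and a Tudor domain protein. In the germline much of this amplification takes place in mutator foci beside the nuclear pores, and some small RNAs are methylated at their ends by a dedicated enzyme.

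DPL-1 peaks of the strongest class lay at the promoters of ego-1, rrf-3, ekl-1 and dcr-1, and at none of the other 5. Bound here means that a summit of the authors' optimal peak list, which was thresholded on the irreproducible discovery rate (IDR), fell between 1000 bp upstream and 500 bp downstream of any annotated transcript start of the gene. By this rule 4 of the 9 members (44.4%) were bound, against 9.22% of all protein-coding genes (1842 of 19985). The same 4 were counted when any overlap of the peak with the window sufficed, against 9.53% of all genes. Of the 5 members on chromosome I 2 were bound, where 15.1% of genes were. The member on chromosome II was bound, against 9.83% there, and so was 1 of the 3 on chromosome III, against 16.1%. Since the list was drawn up with results of these data known, the counts are a description and carry no test.

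The optimal list held 1546 peaks and was the same as the 1546 strongest of the 30000 peaks called on the pooled reads. Its authors' signal values ran from 23.7 to 738, with a median of 42.2. These are values of the peak caller against a control, so they were compared only within a list, and across lists only ranks were set side by side. Read depth is unknown for both replicates, so the counting error of a peak could not be computed.

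The bound members sat in the middle of this list. The pooled signal was 43.4 at ego-1 (rank 739), 43.1 at rrf-3 (rank 748), 36.5 at ekl-1 (rank 911) and 34.2 at dcr-1 (rank 993). The median of these ranks was 829.5, while the median over the strongest peaks of all 1842 bound genes was 686. None of the members lay at ranks 1 to 386 or at ranks 1161 to 1546 of the list. Without the weaker peaks, in the upper 773 alone, ego-1 and rrf-3 remained bound, against 5.12% of all genes.

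**Figure D1:**
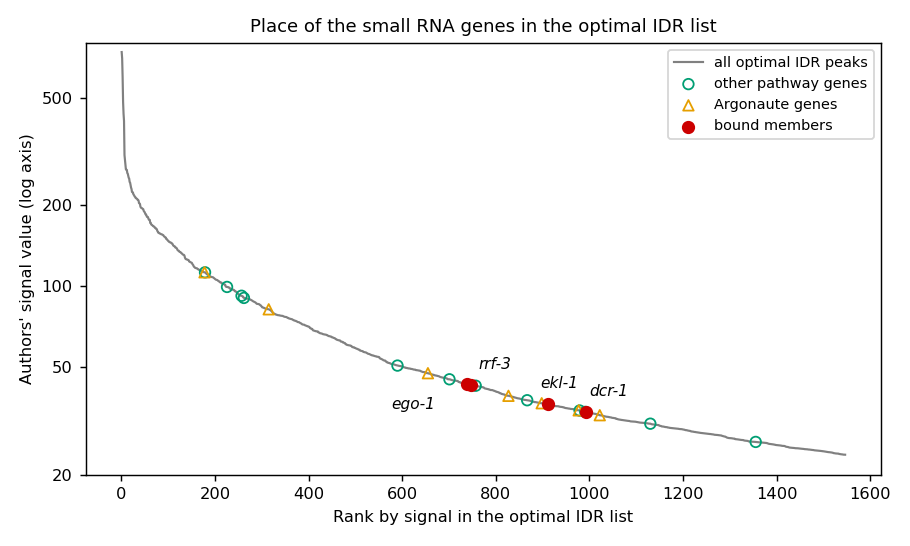
Authors' signal value (log axis) against rank in the optimal IDR list, with the bound members in red, other small RNA pathway genes as green circles and Argonaute genes as orange triangles. The 4 bound members lie between ranks 739 and 993, while rde-2 and wago-4 stand at ranks 179 and 178.

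Among the RNA-dependent RNA polymerases, ego-1 and rrf-3 were bound and rrf-1 was not. EGO-1 acts in germline development and in making germline small RNAs. The ego-1 gene (WBGene00001214, chromosome I, 7650341 to 7656338, minus strand) had its optimal peak at chromosome I 7656422 to 7656711, and the summit was 229 bp upstream of the start in an intergenic stretch of 639 bp. In the replicate lists the signal was 23.7 in replicate 1 (rank 372) and 19.5 in replicate 2 (rank 1215). The site was thus ranked higher in replicate 1, by a factor of 3.27, and 92.4% of the matched promoter peaks had a ratio of replicate 2 rank to replicate 1 rank at or below this one. No other protein-coding gene had the summit in its window, and it lay in the window of the piRNA gene 21ur-14981 as well. The upstream neighbour F26A3.4 is transcribed in the same direction and ends there, so ego-1 was the 1 bound member whose peak lay in no other protein-coding window. Weaker summits lay 922 bp upstream in the pooled list (signal 8.78, rank 7828), 924 bp upstream in replicate 1 (signal 4.88, rank 8506) and 104 bp downstream of the start in replicate 2 (signal 3.97, rank 16047).

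The polymerase RRF-1, a close relative of EGO-1, makes secondary small RNAs in the soma and also in the germline. Its gene (WBGene00004508, chromosome I, 7643431 to 7649777, minus strand) follows ego-1 on the same strand with a gap of 563 bp and has 3 annotated starts. The strongest pooled summit in its windows had a signal of 6.84 (rank 13739). It lay 861 bp upstream of a start, in the annotated 3′ UTR of ego-1. Replicate 1 held weaker summits with signals of 2.36 (rank 29539) and 2.34 (rank 29833), and replicate 2 held none. The nearest optimal peak was that of ego-1 itself, 6790 bp upstream. The pair of adjacent polymerase genes thus carried a single optimal peak, in front of the first gene.

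RRF-3 makes the primary small RNAs of the ERI pathway, which compete with introduced double-stranded RNA for shared factors. The rrf-3 gene (WBGene00004510, chromosome II, 8162465 to 8168651, plus strand) had its optimal peak at chromosome II 8162302 to 8162591, with the summit 18 bp upstream of the start. The signal was 13.2 in replicate 1 (rank 935) and 24.8 in replicate 2 (rank 930), so the ranks differed least here among the bound members. The summit lay in the window of emb-27 as well, a subunit gene of the anaphase-promoting complex (APC) that is transcribed the other way, and whose start was 277 bp from it. The starts are separated by 294 bp. The replicate 1 summit fell 15 bp inside the annotated 5′ UTR of rrf-3, and the replicate 2 summit 25 bp upstream of the start. The only other pooled summit in the window had a signal of 5.38 (rank 21559) and lay in the coding sequence of emb-27.

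The bases around the rrf-3 summit, and the matches to a CHR-type word nearest to it, are shown as an example. No E2F-type word was found within 100 bp of the summit there or at the other bound members. DREAM is known to contact DNA through its E2F and DP subunits at E2F-type sites, and through LIN-54 at CHR (cell cycle genes homology region) elements. All are of the plus strand of WBcel235, with the summit base or the matched word in capitals, and were read at chrII:8162433-8162461, chrII:8162481-8162509 and chrII:8162527-8162555.
rrf-3 summit: gccgtaactgcggaGtctcgttgctaatt
rrf-3 first CHR-type word: atcatcaaattTTTGAAtaaaattgtttc
rrf-3 second CHR-type word: taaatgccattTTCAAAaagtctttcaca

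Of the cofactors that work with the polymerases, ekl-1 was bound and drh-3 was not. EKL-1 is a Tudor domain protein, and DRH-3 is the Dicer-related helicase of the same modules. The ekl-1 gene (WBGene00009052, chromosome I, 7095486 to 7098400, plus strand) had its optimal peak at chromosome I 7094865 to 7095154, with the summit 476 bp upstream. The signal was 12.7 in replicate 1 (rank 999) and 17.3 in replicate 2 (rank 1396). The peak was shared with the divergent prpf-4, annotated in RefSeq as a PRP4 kinase homolog. Its start was nearer to the summit, at 287 bp, and the stretch between the starts spans 762 bp. Inside ekl-1 the pooled list had a summit at 446 bp (signal 4.85, rank 25545) and replicate 2 one at 436 bp (signal 3.83, rank 16860). At drh-3 (WBGene00008400, chromosome I, 7820831 to 7826378, plus strand) a single pooled summit with a signal of 4.61 (rank 27461) lay 743 bp upstream, in an intron of D2005.7. Neither replicate list had a summit in the drh-3 window.

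Dicer, the enzyme that makes the primary small RNAs and also microRNAs, is encoded by dcr-1 (WBGene00000939, chromosome III, 8071967 to 8080281, minus strand). Its optimal peak lay at chromosome III 8080428 to 8080717, with the summit 292 bp upstream. The signal was 16 in replicate 1 (rank 684) and 18.4 in replicate 2 (rank 1289). The divergent gene apc-2, which encodes another APC subunit, had its start 56 bp from the summit, and the starts of this pair are 347 bp apart. Of the 3 neighbours that shared a member's peak, emb-27 and apc-2 thus belong to the same mitotic complex. This was noticed after the neighbours were listed and was not tested. The dcr-1 window held 5 weaker summits. Inside the dcr-1 coding sequence there was 1 in the pooled list, 234 bp downstream of the start (signal 11.1, rank 4663), and 1 in replicate 1, at 232 bp (signal 3.29, rank 18929). Inside apc-2 replicate 1 had summits 944 bp (signal 6.96, rank 3431) and 514 bp (signal 4.37, rank 10955) upstream of dcr-1, and replicate 2 had 1 at 456 bp (signal 5.48, rank 9270).

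The bases at the dcr-1 summit and its single CHR-type word within 100 bp are shown for comparison with rrf-3, again on the plus strand, from chrIII:8080559-8080587 and chrIII:8080634-8080662.
dcr-1 summit: ttaagcatgatcctTtaatatatacagtt
dcr-1 CHR-type word: attttaaccatTTCGAAaatgtccatttt

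**Figure D2:**
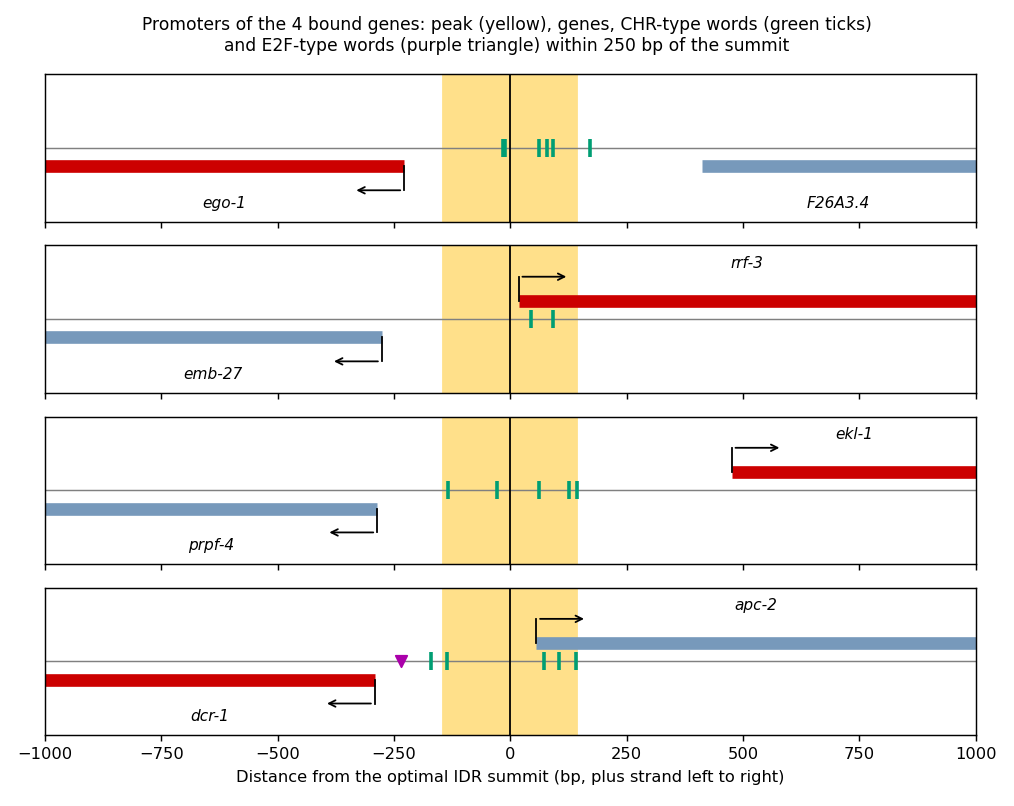
Promoters of the 4 bound members to scale, as distance in bp from the optimal IDR summit, with the peak in yellow, member genes in red, neighbours in blue, CHR-type words as green ticks and E2F-type words as a purple triangle. The summit lies between divergent starts at rrf-3, ekl-1 and dcr-1, and in front of ego-1 alone in the top panel.

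At mut-7 and mut-16, the mutator genes among the members, no optimal peak lay in the window. In the pooled list mut-7 had the strongest summit of the 5 members that were not bound. MUT-7 has an exonuclease domain, and MUT-16 is the scaffold on which mutator foci form. The mut-7 gene (WBGene00003504, chromosome III, 9539031 to 9542380, minus strand) shares 738 bp with the divergent eif-2Balpha, a translation initiation factor subunit gene, and the pooled list had a summit at either side. That 193 bp upstream of mut-7 had a signal of 12.6 (rank 3664), and that 109 bp from eif-2Balpha had 11.2 (rank 4617). In the replicates the order was the opposite. The summit on the eif-2Balpha side had signals of 3.62 (rank 16087) in replicate 1 and 6.01 (rank 7816) in replicate 2, and that on the mut-7 side 2.36 (rank 29454) and 3.9 (rank 16462).

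In the mut-16 window (WBGene00003508, chromosome I, 10080159 to 10085765, plus strand) the pooled and replicate 1 lists had no summit, and replicate 2 had 1 at 249 bp upstream with a signal of 2.25 (rank 29941). An optimal peak nevertheless lay just outside the window. It was at chromosome I 10078789 to 10079078, with the summit 1225 bp upstream in intergenic sequence, and mut-16 was the nearest start of any annotated gene. Its pooled signal of 49.2 (rank 624) was above that of each bound member, with 16.5 in replicate 1 (rank 647) and 30.5 in replicate 2 (rank 713). When windows reached 2000 bp upstream and 1000 bp downstream, mut-16 was counted and 5 of the 9 members were bound, against 11.5% of all genes.

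HENN-1 methylates the ends of small RNAs, which protects them from degradation. The henn-1 gene (WBGene00015349, chromosome III, 8232651 to 8234611, plus strand) overlaps the end of the tandem upstream gene fbxl-1 by 10 bp. Its strongest pooled summit, 553 bp upstream in the 3′ UTR of fbxl-1, had a signal of 11.1 (rank 4667), and a second in a henn-1 intron had 6.28 (rank 16350). The first was found in replicate 1 (signal 4.47, rank 10434) and the second in replicate 2 (signal 2.74, rank 25047), so neither site was found in both replicates. The nearest optimal peak, that of the kinetochore gene knl-1, was 17843 bp away.

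In the full input lists most of the members had some summit, but the ranks were far apart. The pooled list had 14 summits in the windows of 8 members, replicate 1 had 13 in those of 7 and replicate 2 had 11 in those of 7. Such lists hold background as well as peaks, and 50.4%, 50.4% and 49.3% of all protein-coding genes had a summit in them. Between rank 993 (dcr-1) and rank 3664 (mut-7) no member had its strongest pooled summit. The optimal list, which defines bound, necessarily ended between the weakest bound and the strongest unbound member. Among the 10063 genes with a pooled summit 18.3% were bound, and among the 8 members with one it was 4. The other 4 (rrf-1, drh-3, mut-7 and henn-1) had a pooled summit that was not in the optimal list, as did 41.1% of all genes.

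**Figure D3:**
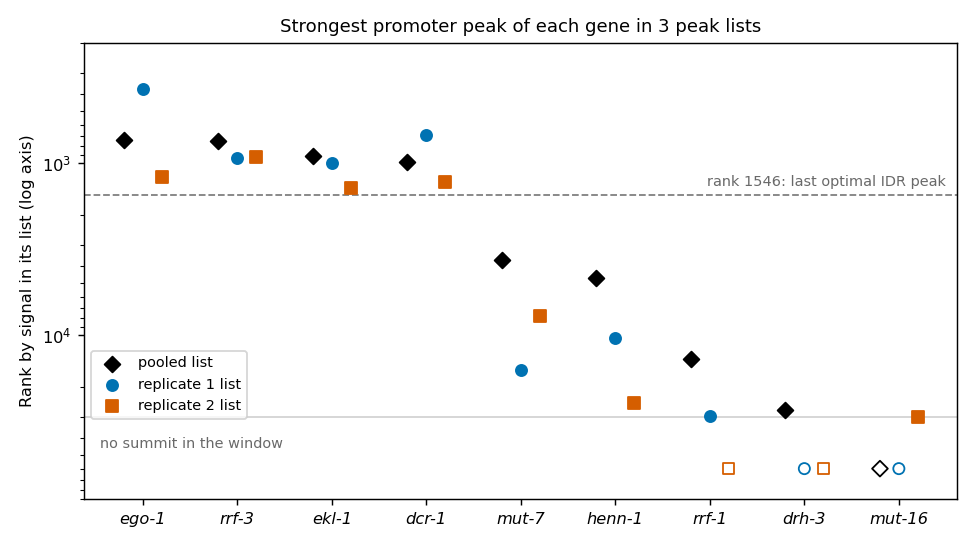
Rank by signal (log axis, strongest at the top) of the strongest summit in each member's promoter window in the pooled (black), replicate 1 (blue) and replicate 2 (orange) lists, where open symbols mark lists with no summit and the dashed line is rank 1546. The 4 bound members lie above the line in all 3 lists and the other 5 below it. In the pooled list this follows from the definition of bound.

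**Figure D4:**
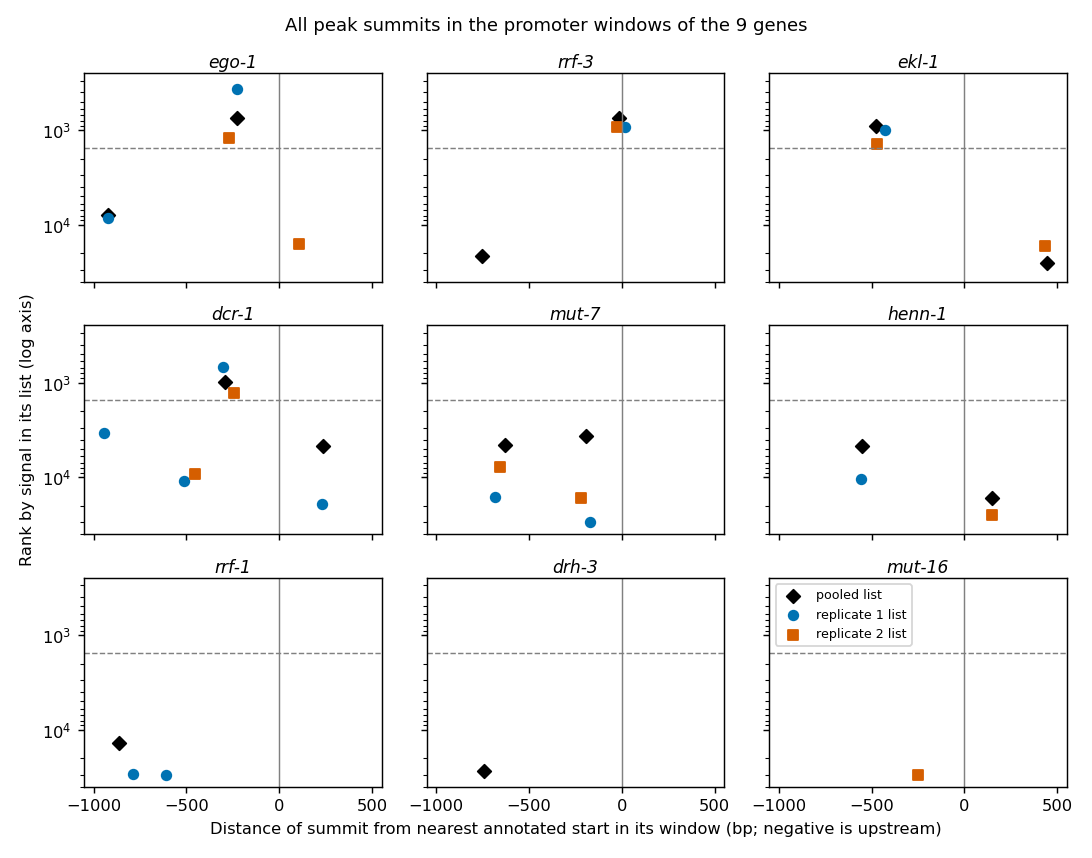
Distance of each summit from the nearest annotated start in its window (bp, negative is upstream) against its rank in its list (log axis), for the 9 members in the pooled (black), replicate 1 (blue) and replicate 2 (orange) lists. At ego-1, rrf-3, ekl-1 and dcr-1 the summits of the 3 lists fall together above rank 1546 (dashed), while at mut-7 and henn-1 they lie in separate weak sites.

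The same 4 members were bound in each replicate taken alone. Using the 1546 strongest peaks of a replicate, 8.89% of all genes were bound in replicate 1 and 8.82% in replicate 2, and 6.41% in both. For ego-1, rrf-3, ekl-1 and dcr-1 the peak was among these in both replicates, as for 62.0% of the promoter peaks of the optimal list (811 of 1308). Summits of the replicates lay 42 bp apart at ego-1, 40 bp at rrf-3, 43 bp at ekl-1 and 58 bp at dcr-1. These distances were all above the median of 26 bp over 1177 promoter peaks matched in both replicates. At ego-1, rrf-3 and ekl-1 they were below the third quartile of 47 bp, and at dcr-1 above it. The rank in replicate 2 was 1.40 times that in replicate 1 at ekl-1 and 1.88 times at dcr-1, and 0.995 times at rrf-3. The median over the matched promoter peaks was 0.965. The bound members lay between ranks 372 and 999 in replicate 1 and between ranks 930 and 1396 in replicate 2. Their order differed, with ego-1 first in replicate 1 and rrf-3 first in replicate 2.

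**Figure D5:**
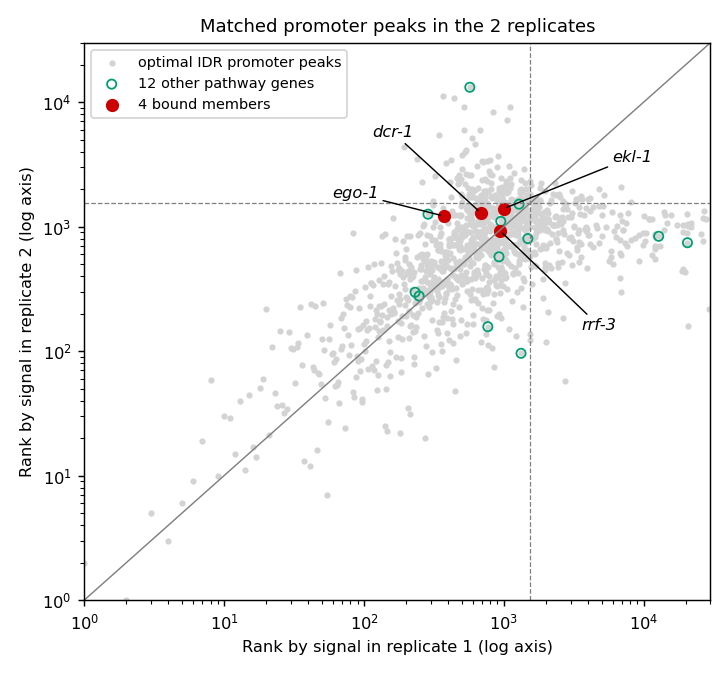
Rank in replicate 2 against rank in replicate 1 (both log axes) for optimal IDR promoter peaks matched in both (grey), 12 other pathway genes (green circles) and the 4 bound members (red). The members lie inside rank 1546 (dashed) on both axes, with ego-1 at 372 and 1215 farthest from the diagonal.

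Peaks most like those of the members in rank were found by the distance of log2 rank over the optimal, replicate 1 and replicate 2 lists, among 1152 promoter peaks. For ego-1 this was the peak of ZC308.4 (ranks 704, 366 and 1164) and for rrf-3 that of F59C6.18 (ranks 833, 904 and 908). For ekl-1 it was the peak shared by ZC328.5 and san-1, a spindle checkpoint gene (ranks 1013, 928 and 1404). For dcr-1 it was that of aka-1 and ubc-6 (ranks 1028, 646 and 1281).

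The bound members had no E2F-type word near their summits and had CHR-type words. The E2F-type words were TTCCCGC, its variant with another centre TTCGCGC, and likewise the variant TTGCCGC as well as the variant TTGGCGC. They were looked for on either strand, up to 100 bp from the summit. They were found at 0 of the 4 members, against 37.8% of the 1308 promoter summits of the optimal list. The CHR-type words TTCGAA and TTTGAA were found at all 4, against 65.1%. The same words spelled backwards, which keep the base composition, were found at 1 of the 4 for the E2F-type (dcr-1, against 14.6% of promoter summits) and at 1 of the 4 for the CHR-type (ekl-1, against 29.8%). As spelled, an E2F-type word and a CHR-type word cannot overlap on either strand. The absence of overlapping matches at these summits therefore says nothing about how the sites are arranged. With only 4 members, neither the E2F-type nor the CHR-type count can be set apart from the shares of all promoter summits. Neither count was tested.

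In the ego-1 peak 5 CHR-type words lay within 100 bp of the summit, the highest number at any of the 1308 promoter summits, and no other had as many. The nearest was a TTCGAA at 11 bp, next to a second word at 17 bp. The other bound members had 2 (rrf-3 and ekl-1) and 1 (dcr-1), where the median was 1 and 25.7% of the summits had 2 or more. Within 250 bp of the summit dcr-1 had an E2F-type word, TTGCCGC, 236 bp away and 50 bp upstream of the dcr-1 start. At this width 43.0% of promoter summits had such a word. The intergenic peak upstream of mut-16 had 1 E2F-type and 2 CHR-type words within 100 bp.

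Sequence at the rrf-3, ekl-1 and dcr-1 summits was rich in A and T, with G and C under the lower quartile of promoter summits (34.3%). At ego-1 G and C lay between this quartile and the median. The share of G and C over 201 bp was 29.9% at rrf-3, 30.3% at ekl-1, 32.3% at dcr-1 and 36.8% at ego-1, all under the median of 38.3% of promoter summits. Of the 465 promoter summits in this range of G and C, 38.1% had an E2F-type word and 69.2% a CHR-type word. Of the 211 promoter summits between ranks 739 and 993, these shares were 30.3% and 60.2%.

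Other genes of small RNA synthesis and amplification, from a list of 46 names of which 39 were annotated protein-coding genes, were bound at 12 (30.8%), against 9.22% of all genes. The strongest 4 ranked well above the members. These were rde-2, a mutator gene (signal 113, rank 179), pash-1, the partner of the Drosha nuclease in microRNA processing (99.4, rank 226), tofu-6, which acts in piRNA processing (92.2, rank 257), and znfx-1, a helicase of germ granules (90.5, rank 262). The median rank of the 12 was 729. The rde-2 peak lay 907 bp upstream of that gene and 69 bp from pfd-6, a prefoldin subunit gene. The peaks of pash-1, tofu-6 and znfx-1 lay in no other protein-coding window.

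In the mutator group mut-15 (signal 45.2, rank 701) and mut-2, a nucleotidyltransferase gene (34.6, rank 979), were bound besides rde-2. The mut-15 summit was nearer to the fib-1 start (69 bp) than to that of mut-15 (251 bp). Likewise the mut-2 summit lay 19 bp from K04F10.3 and 155 bp from mut-2. With simr-1, a Tudor domain gene, the signal was 50.8 (rank 590). In the piRNA branch pid-3 (42.8, rank 757) and tofu-1 (26.5, rank 1355) were bound. Outside these groups tost-1 (37.8, rank 867) was bound as well. Among genes of RNA interference, rde-4, a double-stranded RNA binding gene (30.9, rank 1130), and rde-8, a nuclease gene (34.2, rank 991), were bound. All 12 were matched in both replicates, near the share of 90.0% among the 1308 promoter peaks of the optimal list. But 3 of the 12 lay far down 1 list, namely rde-8 and mut-2 in replicate 1 (ranks 20548 and 12794) and tofu-1 in replicate 2 (rank 13154).

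Sharing with a neighbour was as common here as among the members. Of the 12 peaks 9 lay in the window of another gene as well, as did 3 of the members' 4 (75%), against 61.3% of all bound genes. The neighbours were pfd-6, fib-1, the fibrillarin gene, spe-47, arx-6, K04F10.3, ZC477.3, cox-14, ruvb-1 and C06A5.3. An E2F-type word was found at 5 of the 12 (tofu-6, znfx-1, simr-1, pid-3 and tost-1) and a CHR-type word at 8, where 37.8% and 65.1% of all promoter summits had one. Neither count stands apart from that background. Among 20 Argonaute genes 7 were bound (35%, against 9.22% of all protein-coding genes), with wago-4 (113, rank 178), hrde-1 (82.1, rank 315), wago-1 (47.6, rank 655) and alg-2 (39.2, rank 827) the strongest.

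A peak between divergent starts cannot be assigned to 1 gene. When each summit was given only to the gene with the nearest start, 2 members remained bound (ego-1 and rrf-3), against 6.38% of all genes, since prpf-4 and apc-2 were nearer to the peaks of ekl-1 and dcr-1. Among the 12 bound genes of the other pathway list, 6 remained (rde-4, pash-1, tofu-6, tost-1, pid-3 and znfx-1). The mutator genes rde-2, mut-15 and mut-2 were lost, as were simr-1, rde-8 and tofu-1.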

How the data were processed

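DPL-1 ChIP-seq of whole young adults gave 4 deposited peak lists on assembly ce11 that were used here, 1 for each of 2 replicates, 1 for the pooled reads and the optimal IDR list. The fragment size range is 150 to 350 bp per the labels. The signal value of each peak was assigned by the authors' peak caller against a control, per the deposited description texts. The −log10 q column deposited by the authors holds a single value in the optimal list and was not used to rank. Aligner and peak caller: not given in the sources used here. The ce10 lists and the control were not used here.

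Coordinates are 1-based on ce11, the same assembly as WBcel235, with Ensembl 115 starts (29796 of protein-coding genes). Summits were assigned to windows, ranked by signal, and matched between lists within 100 bp in Python 3.11.15 with pandas 2.3.3; the functions were tested on simulated data. Motif distances run to the nearest base of a word. Overlapping windows were all counted. By rule the text names the members, neighbours in their optimal peaks, bound genes of the other pathway list, the 4 strongest bound Argonaute genes and the peak of nearest rank. Other genes, such as remaining neighbours and unbound pathway genes, were named after their values were seen. The members and lists were chosen with earlier results of these data known. No test was run, since there was 1 group and no count per peak.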

Additional observations from a re-analysis of the deposited data

How the results depend on the processing

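Counts were recomputed under alternatives chosen with the gene lists. Of 29 alternatives 22 stayed within 1.5 times the count, or within the spread of the replicates for the median rank, and 7 did not. Some of the 22 were fixed in advance. The median rank is the same in the pooled list, whose strongest peaks form the optimal list. Words absent within 100 bp are absent within 50 bp, and words present within 100 bp are present within 250 bp. The spread for the median rank comes from only 2 replicate medians (809.5 and 1252), so that limit is wide. With the upper 773 optimal peaks 2 members and 7 other pathway genes were bound, by the nearest start 2 and 6, and with all pooled peaks 8 and 35. Within 250 bp of the summit 1 bound member had an E2F-type word, where 43.0% of promoter summits had one. Within 100 bp it was 0, where 37.8% had one. Leaving out a replicate gave 4 members each time and 10 to 12 other pathway genes. Without replicate 1 the other pathway list gained eri-5 and lost tofu-1. Without replicate 2 it lost mut-2 and rde-8. No paired analysis was possible because there was 1 group. Read depth was unknown, so how far it limits the weaker peaks could not be stated.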

Other observations

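Some small RNA genes had pooled summits just below the end of the optimal list, which was at rank 1546 and a signal of 23.7. The piRNA transcription gene prde-1 had a signal of 23.7 (rank 1556), 114 bp upstream of its start. The ERI pathway gene eri-5 had 21.1 (rank 1784) and the Argonaute gene ppw-2 had 20.8 (rank 1813). Of the ERI genes in the list, eri-3 (rank 18445), eri-6 (rank 13938) and eri-9 (rank 7502) had weak pooled summits, and eri-1 and eri-7 had none in their windows. At pash-1 and drsh-1, whose products work as a pair in microRNA processing, the first was bound and the second had no pooled summit in its window. These genes were picked after their values were seen.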
